A study of Mus musculus with 11 samples.

Results

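Gna15, Osbpl3, Zdhhc2, Podnl1, Filip1l, Acsbg1, Arnt2, Plek and Smpdl3b are 9 genes that were chosen by the values described here, because the Atg5-deficient and wild-type libraries did not overlap in their CPM, the counts of a gene scaled to a common library size. They are 9 of 56748 genes in the table, and all 9 passed the filter on low counts that left 17987 genes. The libraries are RNA-seq profiles of CD4 T cells from fibrotic mouse liver. Of the 11 libraries, 6 are Atg5-deficient (written ATG5TLymph-/-, a deletion in T lymphocytes) and 5 are wild-type mice carrying the floxed allele without the deletion (ATG5fl/fl). Both groups had received repeated injections of the liver toxin CCl4 over 5 weeks, so all libraries share the injury and no uninjured liver was compared. The driver of the deletion, the age and the sex of the mice are not given in the labels. The series' design describes cells sorted by flow cytometry, whereas the sample protocols describe RNA from fixed, paraffin-embedded sections, and the labels do not settle which applies. The labels do not say whether each library came from a separate mouse, and the spread behind the p-values, that between these libraries, may therefore be technical. In bulk RNA, more cells that express a gene and more RNA of it per cell cannot be told apart.

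Atg5 is needed to lipidate LC3 and close autophagosomes, the vesicles in which cells degrade their own contents, and autophagy supports the survival and metabolic fitness of T cells. The 9 genes belong to no single pathway. Gna15 encodes a Gq-class G protein alpha subunit found mainly in blood cells, which couples receptors to phospholipase C, and Plek encodes pleckstrin, a major protein kinase C substrate first described in platelets. Osbpl3 (an oxysterol-binding protein relative), Acsbg1 (an acyl-CoA synthetase of the bubblegum family) and Smpdl3b (a lipid-anchored phosphodiesterase related to acid sphingomyelinase) act on membranes and lipids. Zdhhc2 attaches palmitate to proteins, Arnt2 is a bHLH-PAS transcription factor that pairs with others of its class, Podnl1 is a secreted leucine-rich repeat protein, and Filip1l is named for its relation to a filamin A-interacting protein.

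The upstream sequences of the members are shown first, since genes chosen for a common pattern invite the question of what their promoters share. RefSeq promoter windows on GRCm38.p6, from 250 bases before to 50 bases after an annotated start, were found for 7 of the 9 members in 8 windows. Filip1l has 2 starts, and the window shown here is the downstream one. Its other window, at chr16:57353027-57353326, held no searched motif. The window of Plek, at chr11:17008669-17008968, lies inside the gene span given below. Zdhhc2 and Podnl1 were not matched. The 4 windows below are those of Gna15, which has the widest separation among the members, of Osbpl3, of Smpdl3b, which holds more of the searched motifs than any other member window, and of Filip1l, the member that was lower in Atg5-deficient libraries. They lie at chr10:81524176-81524475 (minus strand), chr6:50456121-50456420 (minus), chr4:132757122-132757421 (minus) and chr16:57548992-57549291 (plus), and each is written 5′ to 3′ with matches to the motifs in capitals.
Gna15: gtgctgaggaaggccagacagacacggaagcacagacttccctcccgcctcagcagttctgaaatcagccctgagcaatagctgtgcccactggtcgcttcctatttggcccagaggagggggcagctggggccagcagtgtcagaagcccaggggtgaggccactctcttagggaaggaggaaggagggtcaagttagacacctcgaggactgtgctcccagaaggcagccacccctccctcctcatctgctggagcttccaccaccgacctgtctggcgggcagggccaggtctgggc
Osbpl3: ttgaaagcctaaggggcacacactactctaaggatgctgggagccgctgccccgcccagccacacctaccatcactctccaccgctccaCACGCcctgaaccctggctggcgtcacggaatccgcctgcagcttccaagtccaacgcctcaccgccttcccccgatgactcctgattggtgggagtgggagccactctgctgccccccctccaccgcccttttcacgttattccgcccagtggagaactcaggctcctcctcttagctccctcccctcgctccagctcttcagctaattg
Smpdl3b: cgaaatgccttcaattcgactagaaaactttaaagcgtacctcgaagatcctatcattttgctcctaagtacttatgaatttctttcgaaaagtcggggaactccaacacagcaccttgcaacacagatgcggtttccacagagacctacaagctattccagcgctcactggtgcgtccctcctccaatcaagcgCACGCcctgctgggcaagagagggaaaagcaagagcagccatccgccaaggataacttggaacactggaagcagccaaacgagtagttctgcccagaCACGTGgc
Filip1l: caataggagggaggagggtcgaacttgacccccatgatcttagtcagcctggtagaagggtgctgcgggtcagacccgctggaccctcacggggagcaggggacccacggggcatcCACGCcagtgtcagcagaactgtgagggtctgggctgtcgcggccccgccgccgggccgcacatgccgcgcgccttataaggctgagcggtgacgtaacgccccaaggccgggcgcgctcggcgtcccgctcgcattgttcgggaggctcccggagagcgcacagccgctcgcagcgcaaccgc

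Searched on both strands, no motif was common to the members' windows. The dioxin response core GCGTG, bound by the aryl hydrocarbon receptor with a partner of the class of Arnt2, was in 4 of the 8 windows (Osbpl3, Filip1l, Acsbg1 and Smpdl3b, each time as its complement CACGC) and in 32.4% of 32851 mouse promoters. The E-box CACGTG was in the window of Smpdl3b alone, where it starts at base 293, and in 7.15% of all promoters. The RUNX motif TGTGGT was in the window of Arnt2 alone, against 16.8% of all. The forkhead motif TGTTTAC, the AP-1 motif TGANTCA and the cell cycle element TTTGAA were in 0 of the 8 windows, against 3.65%, 7.81% and 17.9% of all promoters. Of the motifs searched, CACGTG and GCGTG share the letters CGTG. The G and C content of the windows ran from 39.0% in Plek to 76.7% in Arnt2, beside a median of 52.7% over all promoters.

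By GENCODE M21 on GRCm38 the members lie on 8 chromosomes. Gna15 (ENSMUSG00000034792) is at chr10:81502306-81524225, Osbpl3 (ENSMUSG00000029822) at chr6:50293330-50456201, Acsbg1 (ENSMUSG00000032281) at chr9:54604877-54661870, Arnt2 (ENSMUSG00000015709) at chr7:84246278-84410176, Plek (ENSMUSG00000020120) at chr11:16971206-17052381 and Smpdl3b (ENSMUSG00000028885) at chr4:132732966-132757252, all on the minus strand. Filip1l (ENSMUSG00000043336) is at chr16:57353093-57573126, and Zdhhc2 (ENSMUSG00000039470) and Podnl1 (ENSMUSG00000012889) are at chr8:40423815-40510268 and chr8:84125989-84132527, on the plus strand. Values are counts over all exons of a gene. Exons of Plek and Arnt2 also share bases with a gene on the other strand, Cnrip1 (199 bases) and Gm30873 (214 bases), which had 8.71% and 0.309% of their counts.

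The libraries held 30699408 to 47564440 counts, so 3 counts in a library are worth 0.0631 to 0.0977 CPM, and every member lay above that in every library. CPM values of genes are scaled by TMM factors, which correct for differences in library composition, except for cell type markers (the summed lists and Pf4, Ppbp, Eomes, Spp1 and Ncr1), which are scaled by total counts alone. The 11 markers of CD4 T cells summed to 3753 to 5500 CPM in Atg5-deficient libraries, against 3585 to 4022 CPM in wild-type libraries, so the labelled cell type is present throughout. Atg5 itself averaged 19.2 ± 2.51 CPM in Atg5-deficient libraries, against 16.9 ± 3.59 CPM in wild-type libraries (SD, n = 6 and 5). The labels do not give the deleted part of the gene, so its gene-level count does not check the genotype. Hepatocyte markers, 11 of 12 matched in the table, summed to 70.0 to 1226 CPM in Atg5-deficient libraries, against 45.9 to 701 CPM in wild-type libraries, and 0 of the 11 passed the genotype test. Platelet markers, relevant to Plek, summed to 2.73 to 9.94 CPM in Atg5-deficient libraries, against 4.19 to 6.97 CPM in wild-type libraries, nearly all of it Itga2b. Of the defining platelet genes, Pf4 was at most 0.263 CPM in Atg5-deficient libraries, against 0.209 CPM in wild-type libraries, Ppbp was 0 in the Atg5-deficient and at most 0.117 CPM in the wild-type ones, and Gp9 was at 0 in all 11 libraries. Dendritic cell markers summed to 4.74 to 13.3 CPM in Atg5-deficient libraries, against 2.17 to 5.42 CPM in wild-type libraries. Of the 7 on that list 3 could be tested and Itgax passed edgeR's quasi-likelihood test as higher, with Zbtb46 making up much of the rest. The part of these markers in the members' levels was not tested.

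Gna15, the G protein alpha subunit, stood at 75.1, 76.7, 67.4, 68.8, 72.8 and 58.0 CPM in Atg5-deficient replicates 1 to 6 (median 70.8), against 25.6, 35.6, 36.6, 34.1 and 33.0 CPM in wild-type replicates 1 to 5. The lowest Atg5-deficient library, replicate 6, still had well over the level of wild-type replicate 3, the highest of its group. The means were 69.8 ± 6.79 CPM in Atg5-deficient libraries, against 33.0 ± 4.37 CPM in wild-type libraries (SD, n = 6 and 5), a log2 fold change of 1.08 (SE 0.10). This fold change, like those of the other members below, describes the choice and carries no test.

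Plek, the other signalling member, showed the opposite kind of spread. It stood at 37.7, 43.2, 25, 53.5, 13.7 and 25.4 CPM in Atg5-deficient replicates 1 to 6 (median 31.5), against 9.85, 8.42, 10.4, 11.9 and 8.81 CPM in wild-type replicates 1 to 5. The Atg5-deficient libraries differ among themselves by a factor of 3.90, with replicate 4 highest and replicate 5 only just above the wild-type range, while the wild-type libraries are close together. The means were 33.1 ± 14.4 CPM in Atg5-deficient libraries, against 9.89 ± 1.40 CPM in wild-type libraries (log2 fold change 1.74, SE 0.29). Replicate 4, where Plek was highest, also had 84.7 CPM of Eomes, a transcription factor of NK and some T cells, against 4.36 to 11.6 CPM in wild-type libraries. It also had 96.3 CPM of the secreted protein gene Spp1. Ncr1, a defining NK receptor gene, was at most 0.289 CPM in Atg5-deficient libraries, against 0.183 CPM in wild-type libraries. Their part in Plek was not tested, and without replicate 4 the log2 fold change of Plek was 1.55.

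Among the members that act on lipids, Osbpl3, found where the endoplasmic reticulum meets the plasma membrane, stood at 91.4, 105, 89.3, 113, 87.2 and 78.3 CPM in Atg5-deficient replicates 1 to 6 (median 90.4), against 51.3, 41.0, 50.2, 48.7 and 47 CPM in wild-type replicates 1 to 5. Replicate 4 was highest and replicate 6 lowest among the Atg5-deficient libraries, and the groups are far apart relative to either spread. The means were 94.0 ± 12.6 CPM in Atg5-deficient libraries, against 47.6 ± 4.06 CPM in wild-type libraries (log2 fold change 0.98, SE 0.10).

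Acsbg1, which activates long-chain fatty acids with coenzyme A, stood at 63.5, 66.3, 59.8, 54.4, 54.1 and 54.7 CPM in Atg5-deficient replicates 1 to 6 (median 57.3), against 34.2, 32.6, 41.5, 35.8 and 33.4 CPM in wild-type replicates 1 to 5. Replicates 4, 5 and 6 were nearly level with each other and still above wild-type replicate 3. It had the smallest fold change of the 9, with means of 58.8 ± 5.26 CPM in Atg5-deficient libraries, against 35.5 ± 3.55 CPM in wild-type libraries (log2 fold change 0.73, SE 0.09).

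Smpdl3b was the least abundant member, with 1011 counts over all 11 libraries, and its values are the least precise. It stood at 5.29, 3.11, 2.14, 5.04, 2.12 and 4.04 CPM in Atg5-deficient replicates 1 to 6 (median 3.58), against 0.680, 1.0, 1.70, 0.884 and 0.917 CPM in wild-type replicates 1 to 5. Replicates 3 and 5 came close to wild-type replicate 3, and replicates 1 and 4 were far above it. The means were 3.62 ± 1.39 CPM in Atg5-deficient libraries, against 1.04 ± 0.388 CPM in wild-type libraries (log2 fold change 1.80, SE 0.34).

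Zdhhc2, the palmitoyltransferase, stood at 26, 33.4, 23.7, 32.7, 31.7 and 27.9 CPM in Atg5-deficient replicates 1 to 6 (median 29.8), against 12.3, 13.1, 16, 15 and 13.9 CPM in wild-type replicates 1 to 5. All libraries of each group lay close to their mean, 29.2 ± 3.97 CPM in Atg5-deficient libraries, against 14.0 ± 1.47 CPM in wild-type libraries (log2 fold change 1.06, SE 0.11). The exons of Zdhhc2 share 247 bases with Cnot7, a deadenylase subunit on the other strand, and the strand setting of the counting is not given, so reads on those bases cannot be assigned. Cnot7 averaged 39.6 ± 2.06 CPM in Atg5-deficient libraries, against 42.8 ± 3.13 CPM in wild-type libraries and did not pass the genotype test (log2 fold change -0.11, SE 0.08, adjusted p = 0.419 by edgeR's quasi-likelihood test).

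Arnt2, the transcription factor, stood at 28.3, 25.3, 21.9, 32.8, 28.5 and 26.8 CPM in Atg5-deficient replicates 1 to 6 (median 27.6), against 15.2, 10.5, 15.9, 13.2 and 13.2 CPM in wild-type replicates 1 to 5. The lowest Atg5-deficient library, replicate 3, was above wild-type replicate 3, the highest of its group. The means were 27.3 ± 3.64 CPM in Atg5-deficient libraries, against 13.6 ± 2.10 CPM in wild-type libraries (log2 fold change 1.0, SE 0.13).

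Podnl1, the secreted leucine-rich repeat protein, stood at 94.9, 67.3, 72.6, 78.0, 63.7 and 61.1 CPM in Atg5-deficient replicates 1 to 6 (median 69.9), against 34.5, 37.8, 38.3, 37.8 and 40.7 CPM in wild-type replicates 1 to 5. Replicate 1 stood above the other Atg5-deficient libraries, and the wild-type libraries were the most uniform of any member. The means were 72.9 ± 12.4 CPM in Atg5-deficient libraries, against 37.8 ± 2.20 CPM in wild-type libraries (log2 fold change 0.95, SE 0.11).

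Filip1l was the only one of the 9 that was lower in Atg5-deficient libraries. It stood at 29.2, 28.5, 33.8, 27.0, 36.9 and 32.1 CPM in Atg5-deficient replicates 1 to 6 (median 30.7), against 55.9, 80.1, 67.9, 62.5 and 49.0 CPM in wild-type replicates 1 to 5. The highest Atg5-deficient library, replicate 5, was below wild-type replicate 5, the lowest of its group. The means were 31.2 ± 3.72 CPM in Atg5-deficient libraries, against 63.1 ± 11.9 CPM in wild-type libraries (log2 fold change -1.01, SE 0.12).

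**Figure D1:**
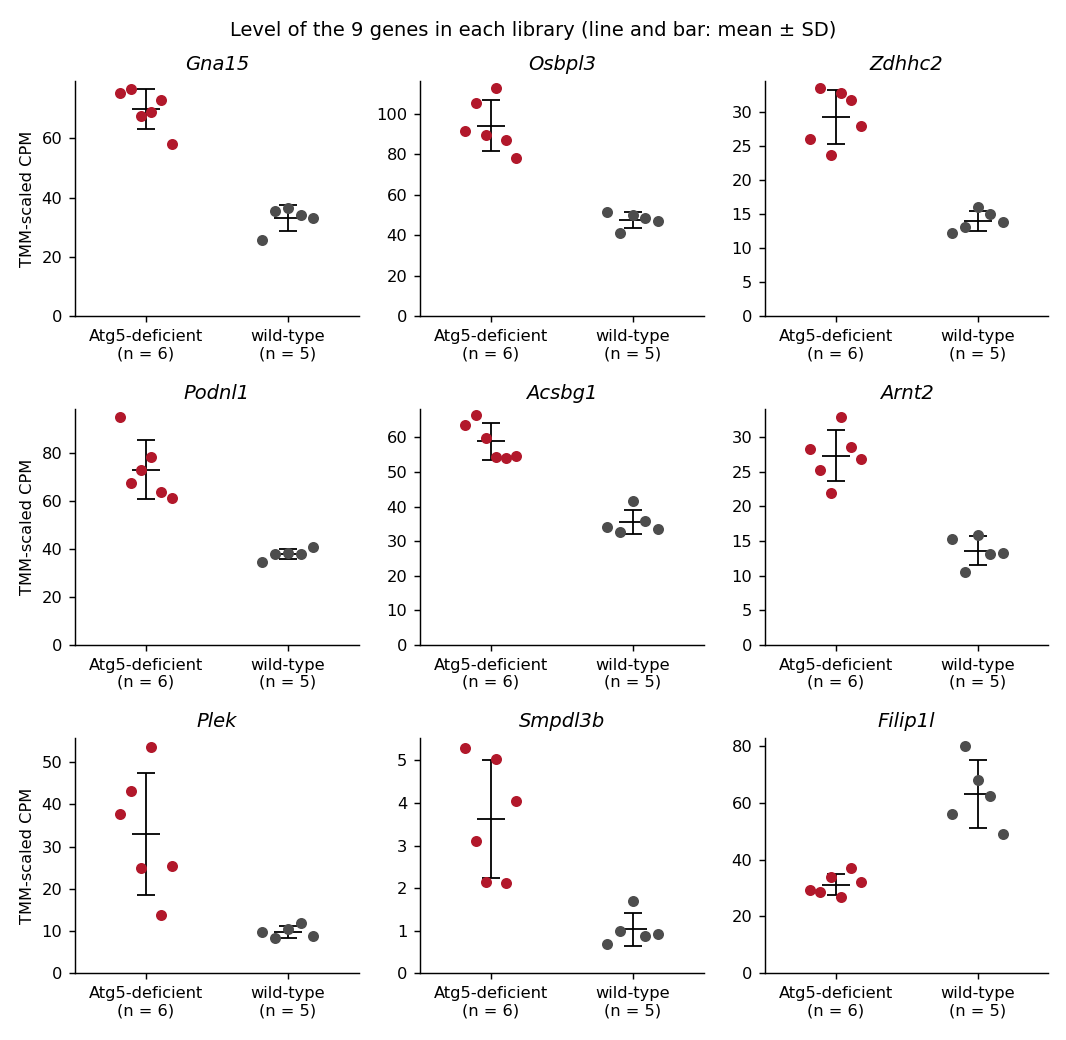
TMM-scaled CPM of the 9 genes in each library (points, linear axes from 0), Atg5-deficient (6 libraries) left of wild-type (5 libraries), with the mean ± SD of each group. Gna15 lies at 58.0 to 76.7 CPM in Atg5-deficient libraries, against 25.6 to 36.6 CPM in wild-type libraries, Filip1l lies lower in Atg5-deficient libraries, and Plek comes closest to touching, at 13.7 CPM in Atg5-deficient replicate 5 and 11.9 CPM in wild-type replicate 4.

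Read per kilobase of exon, so that genes can be compared with each other, Gna15 was the most abundant member in Atg5-deficient libraries at a mean of 32.7 CPM per kb (27.2 to 35.9), followed by Podnl1 (17.2 to 26.7), Acsbg1 (15 to 18.4) and Osbpl3 (8.68 to 12.5). Below these came Plek (3.06 to 11.9), Filip1l (5.06 to 6.91), Zdhhc2 (4.28 to 6.04), Arnt2 (2.85 to 4.27) and Smpdl3b (1.06 to 2.64). The ranges of Gna15 and Podnl1 do not overlap, whereas those of Podnl1 and Acsbg1 do, and that of Plek covers several neighbours. In wild-type libraries the order was Gna15 (12 to 17.2 CPM per kb), Filip1l (9.18 to 15), Podnl1 (9.72 to 11.5) and Acsbg1 (9.05 to 11.5). The ranges of Filip1l, Podnl1 and Acsbg1 overlap each other, and that of Gna15 overlaps that of Filip1l alone among these. Osbpl3 (4.54 to 5.69), Zdhhc2 (2.22 to 2.89), Plek (1.88 to 2.66), Arnt2 (1.37 to 2.07) and Smpdl3b (0.339 to 0.846) followed.

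The separation of the members was measured as the gap on the log2 CPM scale between the nearest libraries of opposite genotype. It was 0.66 for Gna15, 0.61 for Osbpl3, 0.59 for Podnl1 and 0.57 for Zdhhc2. It was 0.46 for Arnt2, 0.41 for Filip1l, 0.38 for Acsbg1, 0.31 for Smpdl3b and 0.20 for Plek. The last of these rest on single libraries: the gap of Plek was 1.06 without Atg5-deficient replicate 5 and 0.40 without wild-type replicate 4, and without wild-type replicate 3 that of Smpdl3b was 1.04 and that of Acsbg1 0.60. Non-overlap is common in the table: 2.78% of the 17987 genes tested were higher without overlap in Atg5-deficient libraries and 2.08% were lower without overlap, 500 and 374 genes. By the test of genotype, 4.43% were called higher and 2.41% lower (6.84% in either direction). Since the same contrast chose the members, nothing is read from their count of 9 beside these shares.

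The members are not the genes with the very widest gaps. Ranked by gap among all genes tested, Gna15 came at 15, Osbpl3 at 16, Podnl1 at 18 and Zdhhc2 at 19, while Arnt2, Filip1l, Acsbg1, Smpdl3b and Plek came at 44, 60, 63, 108 and 233. Among named protein-coding genes with a mean of at least 1 CPM, the widest gap was that of Gh, the growth hormone gene, at 8.52 to 25 CPM in Atg5-deficient libraries, against 0 to 0.0323 CPM in wild-type libraries. Dkkl1, a dickkopf-like secreted protein gene, came next at 4.87 to 6.70 CPM in Atg5-deficient libraries, against 2.37 to 2.62 CPM in wild-type libraries. Ap1m2, an adaptor protein subunit gene, followed at 0.504 to 0.834 CPM in Atg5-deficient libraries, against 1.46 to 1.97 CPM in wild-type libraries. Cx3cr1, the fractalkine receptor gene, had 3.82 to 46.2 CPM in Atg5-deficient libraries, against 0.969 to 2.26 CPM in wild-type libraries, and the secretogranin gene Scg5 had 0.305 to 0.742 CPM in Atg5-deficient libraries, against 1.24 to 2.13 CPM in wild-type libraries. When the difference is divided by the pooled SD of the libraries, Gna15 had 6.17 and ranked 7, and Osbpl3 (5.88), Zdhhc2 (5.83) and Acsbg1 (5.52) ranked 8, 9 and 11. On that measure Plek (2.99) and Smpdl3b (3.27) ranked 358 and 225, so they are the least cleanly separated of the 9. Plek is the member with the smallest gap, although many genes that are not members also separate by less. The called gene nearest to meeting the rule without doing so was Syne3, a nuclear envelope protein gene, whose lowest Atg5-deficient library and highest wild-type library both rounded to 63.0 CPM.

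The members varied among themselves in how evenly they were expressed within a genotype. The coefficient of variation over Atg5-deficient libraries was 8.95% for Acsbg1, 9.73% for Gna15 and 11.9% for Filip1l, and 43.6% for Plek and 38.4% for Smpdl3b. Over wild-type libraries it was 13.2% for Gna15, 18.8% for Filip1l, 14.2% for Plek and 37.5% for Smpdl3b. Podnl1 and Osbpl3 varied more over Atg5-deficient libraries (17.0% and 13.4%) than over wild-type libraries (5.81% and 8.53%).

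Proliferation differed between the groups, so whether the members followed it was examined within each genotype. A score, the mean log2 CPM of 30 cell cycle genes, ran from 3.21 to 4.77 in Atg5-deficient and from 3.03 to 3.74 in wild-type libraries. Mki67, a marker of dividing cells, averaged 364 ± 106 CPM in Atg5-deficient libraries, against 148 ± 26 CPM in wild-type libraries. Atg5-deficient replicate 3 scored 3.21, inside the wild-type range, while the other 5 Atg5-deficient libraries scored 4.40 or more. In that low-scoring library Gna15 was at 67.4 CPM, Osbpl3 at 89.3 CPM, Podnl1 at 72.6 CPM and Plek at 25 CPM, while Filip1l was at 33.8 CPM. That all 9 lay beyond the wild-type range there is fixed by the choice of the genes and says nothing about proliferation.

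**Figure D2:**
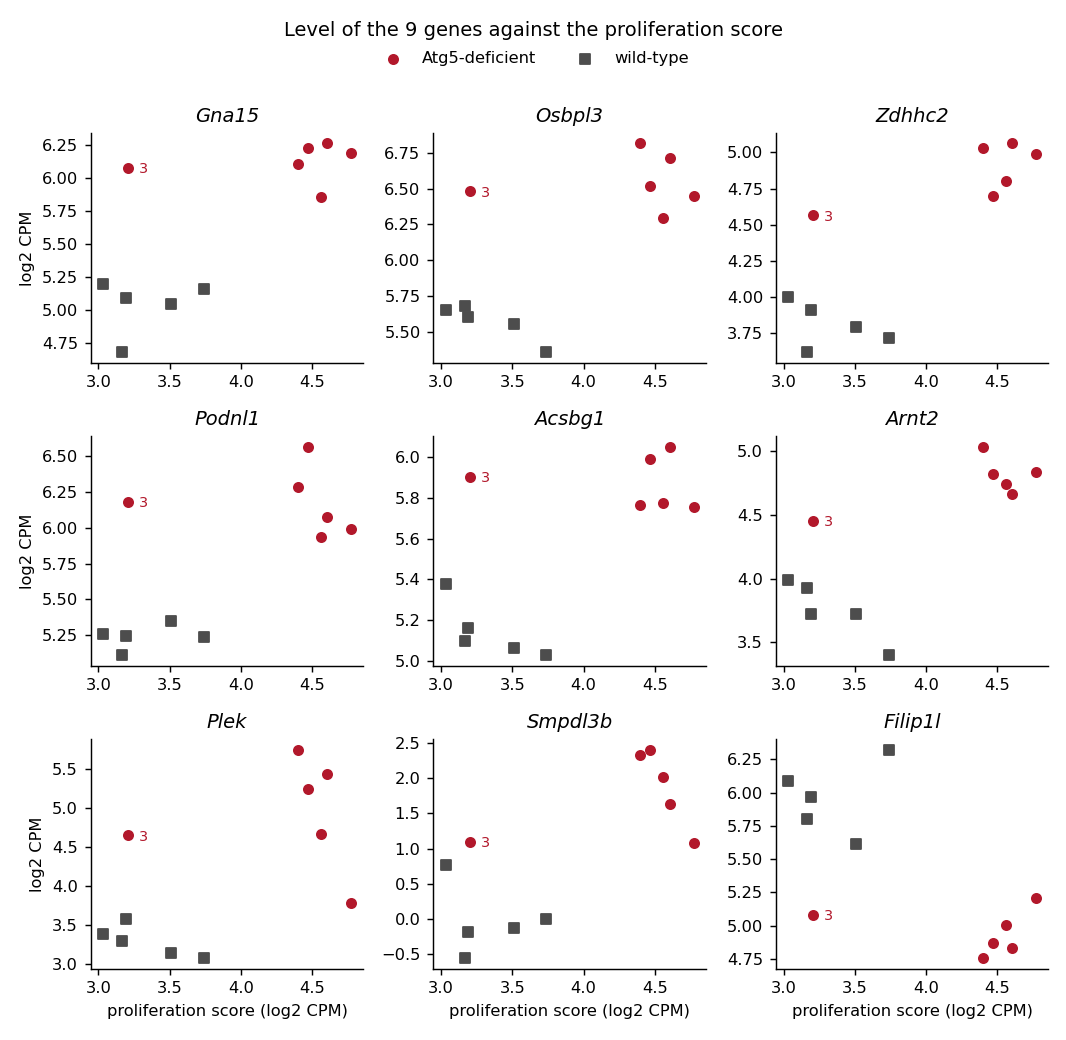
Level of each of the 9 genes (log2 TMM-scaled CPM) against the proliferation score (mean log2 CPM of 30 cell cycle genes) in each library, by genotype. Atg5-deficient replicate 3, at a score of 3.21, sits among the wild-type libraries (3.03 to 3.74) on the horizontal axis. Its place beyond the wild-type libraries on the vertical axis is fixed by how the genes were chosen.

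Within genotypes, none of the 9 members followed the proliferation score at the threshold, in a table where 6.45% of 17957 genes did (681 positively and 477 negatively, edgeR's quasi-likelihood test with genotype in the model). The slopes, in log2 CPM per unit of score, lay between -0.09 (SE 0.10) for Acsbg1 and 0.22 (SE 0.44) for Smpdl3b. Gna15 had 0.06 (SE 0.12), Osbpl3 -0.05 (SE 0.12), Podnl1 -0.03 (SE 0.13) and Filip1l 0.01 (SE 0.14). The adjusted p-values of the 9 ran from 0.455 to 0.993, and 0 of the 9 had an unadjusted p under 0.05, against 23.3% of all genes. Choosing genes without overlap favours those that vary little within a genotype. Nothing is therefore read from the 0 of 9 beside the shares of all genes. The precision differs: the standard errors of Plek (0.41) and Smpdl3b (0.44) leave room for slopes that those of the other members do not. At equal proliferation score the log2 fold change of Gna15 was 1.02 (SE 0.15), that of Filip1l -1.03 (SE 0.19), and those of the 8 higher members ran from 0.82 to 1.75. Only Atg5-deficient replicate 3 scored inside the wild-type range, and its place beyond the wild-type levels is fixed by the choice. These fold changes therefore rest on the fitted line and carry no test.

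The proliferation slopes rest largely on Atg5-deficient replicate 3. Without it 5 genes had a proliferation slope past the threshold, against 1158 with it. The slopes of Plek, Smpdl3b and Arnt2 became -1.27, -1.15 and -0.68, those of Osbpl3, Acsbg1, Podnl1 and Zdhhc2 became -0.47, -0.34, -0.16 and -0.16, and those of Gna15 and Filip1l became 0.14 and 0.41. None of the 9 was called in that fit.

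Taken separately in each genotype, the proliferation slope of Arnt2 was 0.23 (SE 0.13) over Atg5-deficient libraries and -0.73 (SE 0.28) over wild-type libraries. The difference of 0.97 (SE 0.31) had an unadjusted p of 0.00782 and did not pass over all genes (adjusted p = 0.998, edgeR's quasi-likelihood test). Arnt2 was the only member with an unadjusted p under 0.05, and without Atg5-deficient replicate 3 its difference was 0.24. In that fit the differences of Osbpl3, Plek and Smpdl3b were -0.27, -3.98 and -3.15, against 0.43, 0.68 and 1.04 over all libraries. Those of Zdhhc2 and Acsbg1 were positive in every alternative. Over Atg5-deficient libraries the slopes of Osbpl3, Zdhhc2, Acsbg1 and Gna15 were 0.03, 0.26, -0.03 and 0.05, and over wild-type libraries those of the same genes were -0.41, -0.26, -0.38 and 0.13. Of 17957 genes 0% differed in slope by edgeR's adjusted p, 822 had an unadjusted p under 0.05, and DESeq2 and limma-voom called 6 and 0.

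Foxp3, which specifies regulatory T cells, averaged 266 ± 51.3 CPM in Atg5-deficient libraries, against 152 ± 29.1 CPM in wild-type libraries, and its log2 CPM ran from 7.73 to 8.33 in the Atg5-deficient and from 6.75 to 7.53 in the wild-type libraries. Within genotypes none of the 9 members followed it, and neither did any other gene by edgeR (0% of 17986 genes, 489 with an unadjusted p under 0.05, and 6 and 0 called by DESeq2 and limma-voom). The slopes, in log2 CPM per log2 unit of Foxp3, were 0.11 (SE 0.20) for Gna15, 0.23 (SE 0.19) for Osbpl3, 0.26 (SE 0.21) for Zdhhc2, 0.20 (SE 0.17) for Acsbg1 and 0.15 (SE 0.25) for Arnt2. They were -0.19 (SE 0.21) for Podnl1, -0.13 (SE 0.23) for Filip1l, -0.27 (SE 0.58) for Plek and -0.57 (SE 0.62) for Smpdl3b. Each adjusted p was 1.0 by edgeR's quasi-likelihood test. Gna15 had a log2 fold change of 0.99 (SE 0.19) at equal Foxp3, Osbpl3 had 0.80 (SE 0.18), Acsbg1 0.57 (SE 0.16) and Filip1l -0.90 (SE 0.23). Over the 8 higher members it ran from 0.57 to 2.20. The Foxp3 ranges of the genotypes do not overlap, so these values rest on the fitted line.

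Separately by genotype, Smpdl3b had a Foxp3 slope of -1.73 (SE 0.73) over Atg5-deficient and 0.70 (SE 0.75) over wild-type libraries. The difference of -2.43 (SE 1.05) had an unadjusted p of 0.0386 and an adjusted p of 0.999 by edgeR's quasi-likelihood test. Arnt2 differed by -0.96 (SE 0.44, unadjusted p = 0.0475, adjusted p = 0.999, edgeR), with -0.29 over Atg5-deficient and 0.67 over wild-type libraries. Wild-type replicate 2 had the highest proliferation score and the lowest Foxp3 of its group, and wild-type replicate 3 the reverse. The differences of Arnt2 on proliferation and on Foxp3 are therefore not separate results. Of 17986 genes 0% passed by edgeR and 595 had an unadjusted p under 0.05, while DESeq2 and limma-voom each called 0 (914 and 461 unadjusted).

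**Figure D3:**
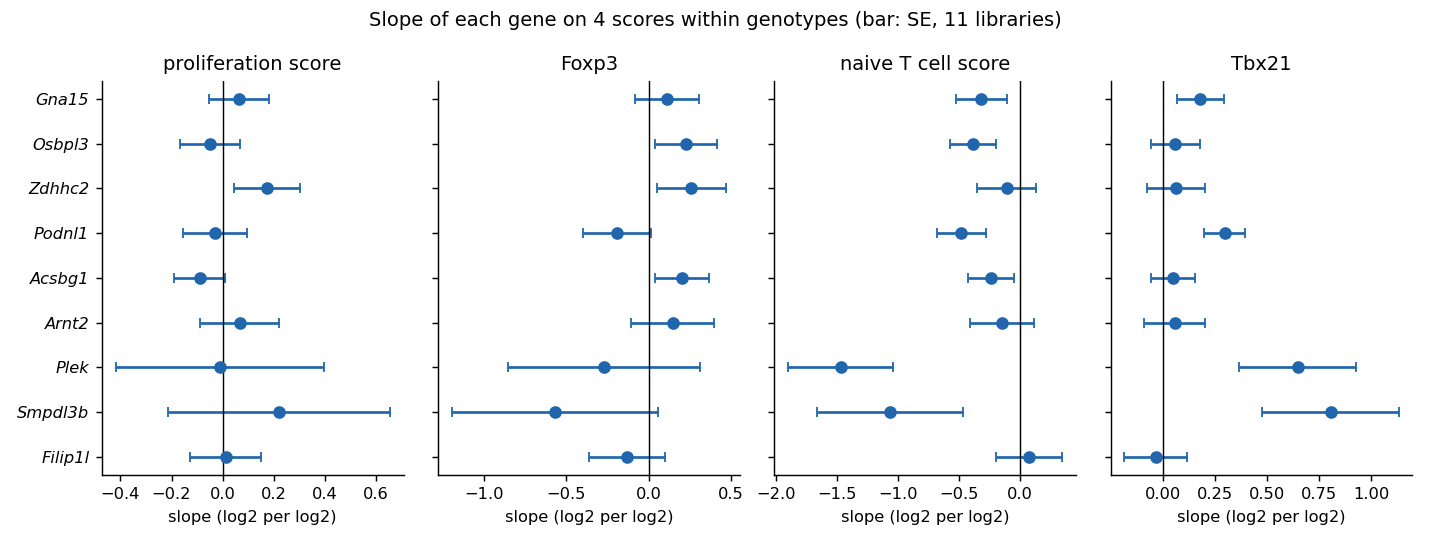
Slope of each of the 9 genes within genotypes on the proliferation score, Foxp3, the naive T cell score and Tbx21 (log2 CPM per unit), with its standard error. The slopes on proliferation lie on both sides of 0, from -0.09 to 0.22, whereas in this fit all 8 higher members have negative slopes on the naive score and positive slopes on Tbx21, signs that turn for some members when libraries are left out.

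Against scores of T cell differentiation no slope of a member was called by edgeR, and the 8 higher members had slopes of a common sign. The naive score, the mean log2 CPM of 14 genes of resting T cells, ran from 7.43 to 8.23 in Atg5-deficient and from 8.25 to 8.66 in wild-type libraries. All 8 higher members had negative slopes on it within genotypes (median -0.35, beside -0.01 over all genes, of which 50.6% were negative). Plek had the steepest at -1.47 (SE 0.43, unadjusted p = 0.00468, adjusted p = 0.355 by edgeR's quasi-likelihood test), then Smpdl3b at -1.06 (SE 0.60), Podnl1 at -0.48 (SE 0.20) and Osbpl3 at -0.38 (SE 0.19). Filip1l had 0.08 (SE 0.27). An unadjusted p under 0.05 was found for 2 members, Plek and Podnl1, and for 7.97% of all genes (1433) by edgeR's quasi-likelihood test. The choice bears on spread within a genotype, so nothing is read from this count of members. Of all 17973 genes 0.0612% were called by edgeR, 11 genes and 0 members, whereas DESeq2 called 216 and limma-voom 10. DESeq2 called 1 member, Plek (slope -1.49, adjusted p = 0.0459, beside 0.0459 to 0.999 over the alternatives). The common sign did not hold in every alternative: without Atg5-deficient replicate 4 the slopes of Zdhhc2 and Arnt2 were 0.04 and 0.12, and in the 8 libraries with neighbouring numbers those of Gna15 and Zdhhc2 were 0.03 and 0.04, none of them called. At an equal naive score the log2 fold change of Plek was 0.72 (SE 0.34), below its 1.74 without the score, while that of Zdhhc2 was 0.99 (SE 0.19) and that of Gna15 0.88 (SE 0.16). The naive score ranges of the genotypes do not overlap, so these values too rest on the fitted line.

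Tbx21, the transcription factor T-bet of the Th1 lineage, averaged 59.1 ± 24.1 CPM in Atg5-deficient libraries, against 26.6 ± 6.64 CPM in wild-type libraries. All 8 higher members had positive slopes on it within genotypes (median 0.12, beside -0.01 over all genes, of which 52.3% were negative). Gna15 had 0.18 (SE 0.11), the remaining higher members apart from Smpdl3b, Plek and Podnl1 had 0.05 to 0.07, and Filip1l had -0.03 (SE 0.15). Smpdl3b had 0.81 (SE 0.33), Plek 0.65 (SE 0.28) and Podnl1 0.30 (SE 0.10), with unadjusted p-values of 0.0280, 0.0401 and 0.00852 and an adjusted p of 0.960 each by edgeR's quasi-likelihood test. Beside these 3 members, 4.24% of all genes (763) had an unadjusted p under 0.05 for Tbx21 by edgeR's quasi-likelihood test. Nothing is read from this count of members either. Of all 17986 genes 0.00556% were called by edgeR, 1 gene and 0 members, whereas DESeq2 called 15 and limma-voom 2. Here too the sign turned in some alternatives, with no slope called: without Atg5-deficient replicate 4 Osbpl3 and Arnt2 had -0.02 and -0.03, without replicate 3 Zdhhc2 and Arnt2 had -0.02 and -0.03, and without replicate 1 Acsbg1 had -0.02. In the 8 libraries with neighbouring numbers Zdhhc2 had -0.03 and Acsbg1 -0.01, and with hepatocyte markers as a covariate Acsbg1 had -0.00. Tbx21 was highest in Atg5-deficient replicates 1 and 4, at a log2 CPM of 6.64 and 6.27, the same libraries in which Smpdl3b was highest. The naive score was lowest in these libraries, at 7.61 and 7.43, so the slopes on the naive score and on Tbx21 are not separate patterns. The 8 genes share the libraries and are not independent, so their common sign is a description.

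The deviations of the members from their genotype means were then set against each other over the 11 libraries. The points share library, depth and scaling, so the correlations are descriptions. Of the 28 pairs among the 8 higher members 26 were positive, with a median Pearson r of 0.35 and a range from -0.17 to 0.69. The closest pair was Osbpl3 with Plek (r = 0.69), followed by Osbpl3 with Arnt2 and Plek with Smpdl3b (0.58 each). Of the 8 pairs with Filip1l 1 was positive (median -0.24), the lowest being that with Osbpl3 at -0.60. Over 161802 pairs of a member with any other gene tested the median was 0.0167.

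**Figure D4:**
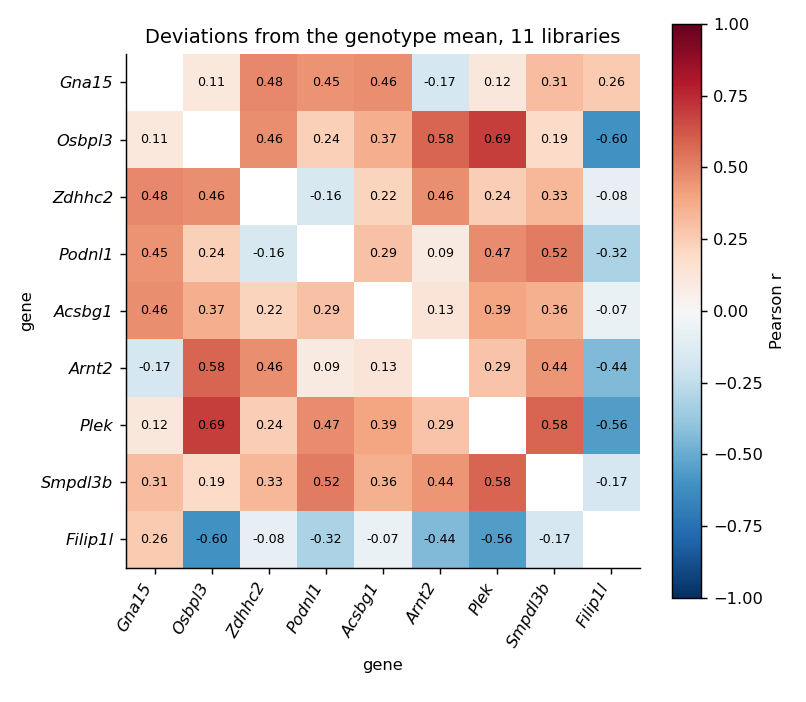
Pearson r between the deviations of each pair of the 9 genes from their genotype means (log2 CPM, 11 libraries). Of the 28 pairs among the 8 higher members 26 are above 0, with Osbpl3 and Plek highest at 0.69, and the pairs with Filip1l are mostly below 0.

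The genes whose deviations were most like each member's, by Pearson r over the 11 libraries, were Arpc3 (0.93) and Mrps30 (0.92) for Gna15, and Glcci1 and Srgap3 (0.93 each) for Osbpl3. For Zdhhc2 they were Ifi204 (0.94) and Fam129a (0.92), for Acsbg1 Map3k8 and Stab1 (0.93 each) and for Arnt2 Arhgap39 (0.90) and Dzip3 (0.89). Podnl1 was most like F2rl2 (0.91) and Sorl1 (0.90), Plek most like Nt5m (0.92) and Hip1 (0.91), and Smpdl3b most like Abracl (0.87). Filip1l was most like Tmem214 (0.91) and Zfp12 (0.90). With 17987 genes and 11 points values of this size are reached by the best of many, and none of these leading genes is itself a member.

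The relatives of the members, 105 genes of 9 families, were compared between genotypes by the same fit. The families follow from members chosen on this contrast, and the lists were made with earlier results known. Of 77 tested, 7 were higher and 1 was lower in Atg5-deficient libraries, 10.4% beside 6.84% of all genes. Their median log2 fold change was 0.13, beside -0.00 over all genes.

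Of the 9 G protein alpha subunits tested, 2 rose. Gnaq, a member of the class of Gna15, averaged 15 ± 1.51 CPM in Atg5-deficient libraries, against 8.95 ± 1.78 CPM in wild-type libraries (log2 fold change 0.74, SE 0.14, adjusted p = 0.00985 by edgeR's quasi-likelihood test). Gna11, of the same class, did not pass, at 21.5 ± 2.09 CPM in Atg5-deficient libraries, against 20.6 ± 1.14 CPM in wild-type libraries (0.06, SE 0.09, adjusted p = 0.729, edgeR). Gna13, an alpha subunit of another class, averaged 298 ± 40.0 CPM in Atg5-deficient libraries, against 224 ± 24.8 CPM in wild-type libraries (0.42, SE 0.10, adjusted p = 0.0297, edgeR), and it passed in 6 of the 11 fits made with a library omitted. Of 8 protein kinase C genes, the kinases that phosphorylate pleckstrin, Prkca rose at 123 ± 6.29 CPM in Atg5-deficient libraries, against 96.8 ± 8.22 CPM in wild-type libraries (0.35, SE 0.08, adjusted p = 0.0161, edgeR).

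Of 12 genes tested on the list of bHLH-PAS factors, which includes the PAS genes Per1, Per2 and Per3, 2 rose. The aryl hydrocarbon receptor gene Ahr averaged 31.3 ± 4.57 CPM in Atg5-deficient libraries, against 19.2 ± 3.30 CPM in wild-type libraries (log2 fold change 0.70, SE 0.13, adjusted p = 0.00936 by edgeR's quasi-likelihood test). Hif1a, the factor of the oxygen response, averaged 347 ± 99.7 CPM in Atg5-deficient libraries, against 204 ± 52.5 CPM in wild-type libraries (0.77, SE 0.21, adjusted p = 0.0470, edgeR), but in only 2 of the 11 fits with a library omitted did it pass. Arnt, the closest relative of Arnt2 and the usual partner of Ahr and Hif1a, averaged 71.3 CPM in Atg5-deficient libraries, against 71.2 CPM in wild-type libraries (log2 fold change 0.00).

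Of 7 acyl-CoA synthetases tested 1 rose and 1 fell. Acsl3 fell, at 7.39 ± 1.78 CPM in Atg5-deficient libraries, against 13.2 ± 1.93 CPM in wild-type libraries (log2 fold change -0.83, SE 0.17, adjusted p = 0.0120 by edgeR's quasi-likelihood test), the reverse of Acsbg1. Acsl4, which prefers arachidonate, averaged 79.8 ± 5.47 CPM in Atg5-deficient libraries, against 64.9 ± 6.38 CPM in wild-type libraries (0.30, SE 0.08, adjusted p = 0.0456, edgeR), and with a library omitted it passed in 1 of 11 fits. The list of sphingomyelinases and related genes had 7 tested, among them Asah1 and Asah2, which encode ceramidases. Of these 7 the acid sphingomyelinase Smpd1 rose at 17.8 ± 2.99 CPM in Atg5-deficient libraries, against 12.5 ± 1.85 CPM in wild-type libraries (0.51, SE 0.14, adjusted p = 0.0424, edgeR), and it passed in 3 of the 11 such fits.

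In the other 4 families 0 passed edgeR's test. Of 19 DHHC palmitoyltransferases the most abundant, Zdhhc18, averaged 193 ± 20.7 CPM in Atg5-deficient libraries, against 161 ± 9.08 CPM in wild-type libraries (log2 fold change 0.27, adjusted p = 0.0705 by edgeR's quasi-likelihood test), and it passed with DESeq2 (adjusted p = 0.0269, the lowest over the alternatives) and without Atg5-deficient replicate 6. Of 8 oxysterol-binding relatives Osbpl8 averaged 142 ± 15.3 CPM in Atg5-deficient libraries, against 133 ± 11.1 CPM in wild-type libraries (0.10, adjusted p = 0.550, edgeR). Of 4 filamin-related genes Flna averaged 1758 ± 289 CPM in Atg5-deficient libraries, against 1360 ± 87.5 CPM in wild-type libraries (0.37, adjusted p = 0.0707, edgeR), and it passed with DESeq2, with no low-count filter and without Atg5-deficient replicate 3 (adjusted p = 0.00192, the lowest over the alternatives). Of 3 small leucine-rich proteoglycans Dcn was at 0.558 CPM in Atg5-deficient libraries, against 0.540 CPM in wild-type libraries. The 4 filamin-related genes had a median log2 fold change of 0.51, opposite in sign to Filip1l.

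**Figure D5:**
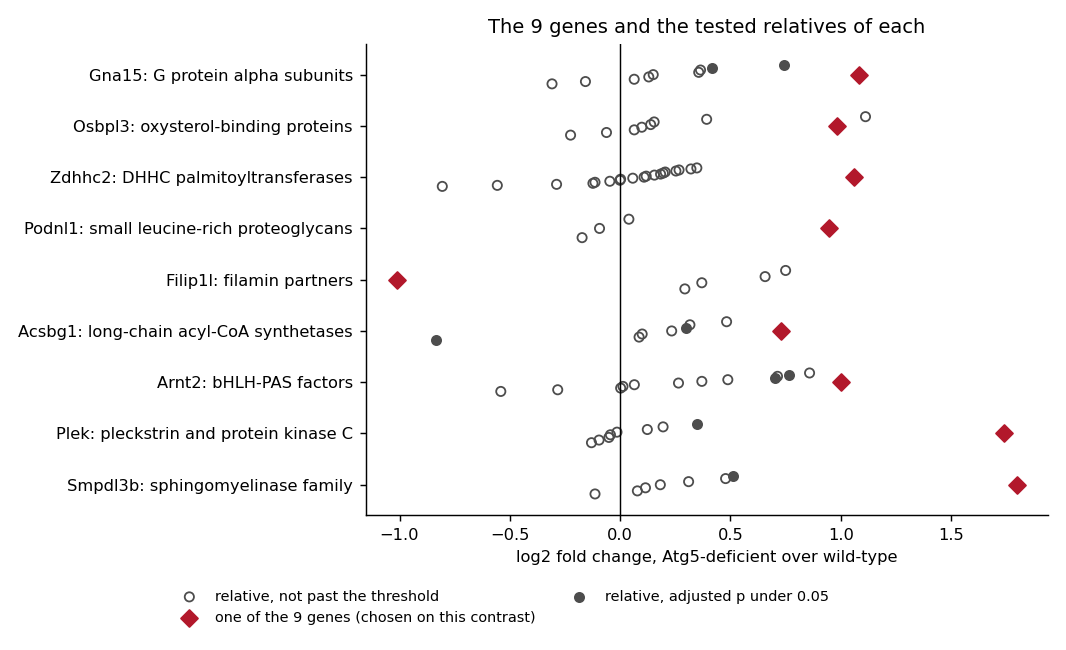
Log2 fold change (Atg5-deficient over wild-type, edgeR) of the members and of their tested relatives, by family, with relatives that passed the test marked. Of 77 relatives 7 passed as higher and 1, Acsl3, as lower, while the DHHC, oxysterol-binding, filamin and leucine-rich families have none.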

How the data were processed

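The table the authors deposited holds raw counts, by Ensembl gene ID, for each of 11 libraries. STAR, featureCounts and GRCm38 are named in the submitters' processing notes. No version, annotation, strand setting or treatment of multimapping reads is given in these sources. Of 56748 IDs, 52125 (91.9%) matched GENCODE M21, holding 89.3% to 96.5% of the reads of a library. Columns of other samples numbered 0. Replicate numbers follow the order of the samples and pair nothing, and the counts of every pair of libraries in a group differed beyond sampling noise (chi-square of 12.9 to 165 per degree of freedom). Wild-type replicates 1, 4 and 5 were the closest to each other (12.9 to 19.0). Each of them differed from wild-type replicates 2 and 3 by 95.7 to 165.

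Genes were kept by filterByExpr (minimum count 10, total 15), scaled by TMM and tested with edgeR 4.0.16's robust quasi-likelihood test (R 4.3.3), with Benjamini-Hochberg adjustment over all genes and a threshold of 0.05. The common biological coefficient of variation was 0.341. Slopes came from models with genotype and a score (log2 CPM, prior count 2), and the genes of a score were left out of its own test. DESeq2 1.42.0, limma-voom (limma 3.58.1), other scalings, filters and scores, and leaving out each library were alternatives. The tests of genotype, of the proliferation slope and of its difference between genotypes were run on simulated counts. No difference in slope was planted there, and the Foxp3, naive and Tbx21 slopes were not simulated. The members and all lists were chosen with earlier results of these data known. Named by rule were the members, the genes most like each member, the widest gaps, and the relatives that passed (up to 4 a family, otherwise the most abundant). The labels mark no batch, and the 8 libraries with neighbouring numbers were also fitted alone.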

Additional observations from a re-analysis of the deposited data

How the results depend on the processing

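The 9 members stayed without overlap in the 4 alternatives of scaling or prior count. Their smallest gap was 0.05 (log2), for Plek with upper-quartile factors, which move the median log2 fold change of all genes to -0.07. Much of this was fixed in advance. Leaving out a library only removes points, and another prior count keeps the order of the libraries. Scaling by total counts alone gives plain CPM, the measure behind the choice. Only the RLE and upper-quartile factors could have made an overlap. The log2 fold changes of the members kept sign in 19 alternatives (Plek 1.55 to 1.90, Smpdl3b 1.56 to 2.06). With groups chosen not to overlap, that sign was all but fixed, so only the sizes are informative. Of 1062 recomputed slopes of members, 1 was called, that of Plek on the naive score with DESeq2 (-1.49, adjusted p = 0.0459, against 0.0459 to 0.999 over its alternatives), and 70 uncalled slopes changed sign. Among relatives, 7 higher and 1 lower passed, against 3 and 1 with upper-quartile factors, 12 and 1 with DESeq2, 0 and 0 in the 8 libraries with neighbouring numbers alone and 13 and 3 without Atg5-deficient replicate 3. With upper-quartile factors the genotype calls over all genes split into 584 higher and 685 lower, against 797 and 434.

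With DESeq2 the genes called were 2333 for genotype (1231 by edgeR), 2188 for the proliferation slope (1158), 6 for the Foxp3 slope (0), 216 for the naive slope (11), 15 for the Tbx21 slope (1) and 6 for the difference in proliferation slope (0). With limma-voom 2 were called for Tbx21. With no low-count filter 69 were called for the naive slope, 11 for Tbx21 and 61 for the difference in proliferation slope. In the 8 libraries with neighbouring numbers alone, 176 were called for genotype, 0 for the naive slope and 0 for Tbx21. Hepatocyte markers as a covariate gave 3 for Tbx21, and Mki67 alone as the score gave 41 for the proliferation slope. The cause of these shifts was not tested. Leaving out 1 library gave 642 to 2143 calls for genotype, 5 to 1622 for the proliferation slope, 0 to 1 for Foxp3, 0 to 248 for the naive slope and 0 to 3 for Tbx21. Genotype calls moved past 1.5 times without Atg5-deficient replicates 1, 2, 3 and 4 (715, 642, 2143 and 702) and without wild-type replicates 1, 4 and 5 (673, 710 and 651). Proliferation slope calls did so without Atg5-deficient replicates 3 and 5 (5 and 498) and wild-type replicate 4 (699). No paired analysis was possible because the labels carry no replicate numbers. Smpdl3b, with 1011 counts in all, is the member with the least depth, and its coefficient of variation was 38.4% over Atg5-deficient and 37.5% over wild-type libraries.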
